A study of Homo sapiens with 6 samples.

Results

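The genes described here encode the aminoacyl-tRNA synthetases, the enzymes that load amino acids onto tRNA, in NCI-H1703 cells, a human lung cancer line. The 36 genes were selected by name, 20 for cytosolic and 16 for mitochondrial enzymes, out of 17534 genes in the deposited tables. The family itself was chosen on the differences between these same 6 libraries, so its changes are given as a description, without a test. All 36 genes passed the filter on low counts, which 13060 of the 17534 genes did.

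RNA sequencing was carried out on 3 libraries of cells with a short hairpin RNA (shRNA) against PPM1G, which encodes a nuclear protein phosphatase, and on 3 control libraries whose genotype label reads Sh-NC. The series title calls the control cells wild-type, and the labels do not spell out Sh-NC. All 6 libraries come from the one cell line, and how many hairpins or clones were used was not given in the sources used here. Nothing in the labels states that a group's libraries were grown as separate cultures. The p-values therefore reflect the spread among these 6 samples alone, and that spread may be technical.

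A synthetase recognises its tRNA and joins it to the matching amino acid, and the charged tRNA is then carried to the ribosome. Cytosol and mitochondria translate separately, and for most amino acids a separate nuclear gene encodes the enzyme of each compartment, whereas GARS1 and KARS1 each supply both. When charging falls short, the kinase GCN2 senses uncharged tRNA and raises translation of the transcription factor ATF4, which with C/EBP partners binds composite promoter elements of amino acid genes, several synthetase genes among them.

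The core of that element, TGATGNAA with N any base, was searched on both strands of RefSeq promoter windows (GRCh38.p14, 250 bases before to 50 after each start). It stood in 6 of 16 cytosolic windows (37.5%) and in 1 of 14 mitochondrial windows (7.14%), against 1003 of 27305 windows of all genes (3.67%) and 192 of 10751 windows of tested genes (1.79%). LARS1, TARS3, VARS1, YARS1, AARS2 and VARS2 had no window. All 6 cytosolic matches carried the letters TGATGCAA or their reverse complement TTGCATCA, a form singled out after the matches were seen, which 252 of 27305 windows of all genes (0.923%) and 52 of 10751 of tested genes (0.484%) held. The stretches around these matches are shown because AARS1 and CARS1, the cytosolic genes with the largest rises, are among the 6. Each is written 5′ to 3′ along the gene's strand, with the matched letters in capitals:
AARS1: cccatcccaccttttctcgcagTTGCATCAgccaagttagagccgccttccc
CARS1: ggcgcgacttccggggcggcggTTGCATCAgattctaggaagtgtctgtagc
IARS1: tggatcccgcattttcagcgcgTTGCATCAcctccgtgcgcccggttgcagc
MARS1: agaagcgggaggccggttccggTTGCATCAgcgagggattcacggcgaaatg
NARS1: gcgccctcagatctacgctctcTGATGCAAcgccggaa
TARS1: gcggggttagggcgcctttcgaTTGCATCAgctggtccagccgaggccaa

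On GRCh38.p14 these stretches lie at chr16:70289664-70289715 for AARS1, chr11:3057396-3057447 for CARS1 and chr9:92293681-92293732 for IARS1, all on the minus strand. Those of MARS1 at chr12:57488042-57488093 and TARS1 at chr5:33440945-33440994 are on the plus strand, and that of NARS1 at chr18:57621807-57621844 is on the minus strand. The match begins 187 bases before the annotated start in AARS1, 13 before it in IARS1, 4 in MARS1 and 2 in CARS1. In TARS1 and NARS1 it falls just after the start that the window uses. For TARS1 that start lies inside the gene, which begins upstream at position 33440696 in RefSeq. A match of letters is not evidence of binding, and a window without one says nothing about the factor.

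Library totals were 31337553 to 35838246 counts in the PPM1G shRNA group and 35456562 to 35716901 in the control group. PPM1G itself had 182, 194 and 188 CPM (counts relative to library size, scaled by TMM factors) in PPM1G shRNA libraries 1 to 3 and 333, 308 and 324 CPM in control libraries 1 to 3. It fell by 0.77 on the log2 scale (SE 0.03, edgeR's quasi-likelihood test, adjusted p = 3.35e-20), to 0.585 of the control level. Of 6 squamous markers in the tables, the label's cell type, SOX2 lay at 4.10 to 9.44 FPKM (fragments per length and depth), TP63 at 0.0833 to 0.240 and the keratin and desmosomal genes at or under 0.0362. Of 4 adenocarcinoma markers, NKX2-1 stood at 43.2 to 55.6 FPKM and NAPSA at up to 15.1, while SFTPB was at or under 0.0224 and SFTPC at 0. Leukocyte markers stayed at or under 0.201 FPKM. The summed fibroblast markers, nearly all COL1A1, were 62.2 to 63.3 FPKM in PPM1G shRNA libraries and 26.1 to 28.9 in control libraries, and their part in the results was not tested.

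PPM1G shRNA libraries held more RNA for alanyl-, cysteinyl-, tryptophanyl- and tyrosyl-tRNA synthetase and less for histidyl-tRNA synthetase and for the beta chain of phenylalanyl-tRNA synthetase than control libraries. At an adjusted p under 0.05, 17 of the 36 genes rose, 18 fell and 1, MARS2, was not called. Over all genes tested, 41.5% rose and 41.3% fell. The rule used this contrast, so nothing is read from the count. Among the cytosolic genes 11 rose and 9 fell, with a median log2 fold change of 0.14 and a range of -1.22 to 2.25. Among the mitochondrial genes 6 rose and 9 fell, with a median of -0.34 and a range of -0.85 to 0.75. With plain library totals the cytosolic median was 0.24 and the mitochondrial -0.24, and with log2(FPKM + 1) the mitochondrial median was -0.19. The median over all genes tested was 0.01, and 0.12 with plain totals. In bulk RNA, fewer cells of a type and less RNA per cell cannot be told apart.

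A change of at least 2-fold was seen for 4 cytosolic genes upward and 2 downward and for 0 mitochondrial genes, where 11.8% of all genes tested rose and 12.4% fell by that much. The libraries of the 2 groups did not overlap for any of the 36 genes, 18 being higher and 18 lower in PPM1G shRNA libraries. Of all genes tested, 41.9% were higher and 41.8% lower without overlap. The median absolute log2 fold change was 0.63 for cytosolic genes, 0.46 for mitochondrial genes and 0.54 for all genes tested.

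**Figure D1:**
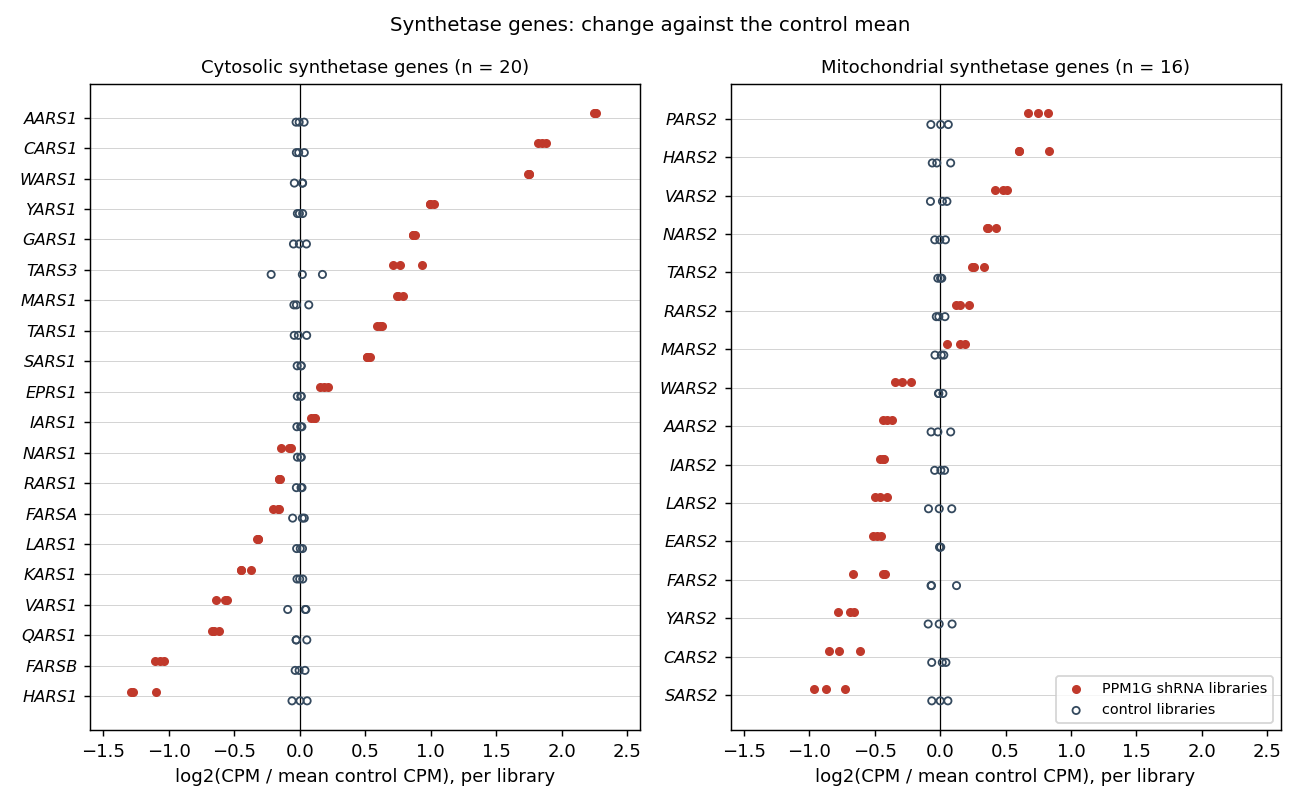
Each point is 1 library's log2 ratio of CPM to the mean of the 3 control libraries, for 20 cytosolic genes (left) and 16 mitochondrial genes (right), with PPM1G shRNA libraries filled and control libraries open. The filled points run from AARS1 at the top, with a fitted log2 fold change of 2.25, to HARS1 at -1.22, and the mitochondrial genes span a narrower range, -0.85 to 0.75.

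AARS1, which charges tRNA with alanine, had 1412, 1401 and 1392 CPM in PPM1G shRNA libraries 1 to 3, against 288, 293 and 301 CPM in control libraries 1 to 3. Its means were 1401 ± 10 and 294 ± 6.3 CPM (SD, n = 3 each), a log2 fold change of 2.25 (SE 0.03) or 4.77-fold. The 3 libraries of each group lay close together and far from the other group, and no other member rose as much. The gene lies on chromosome 16, positions 70252295 to 70289543 of GRCh38, with 0 exon bases shared with another annotated gene.

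CARS1, the cysteinyl enzyme, had 212, 222 and 217 CPM in PPM1G shRNA libraries against 61.8, 59.2 and 60.0 CPM in control libraries, a log2 fold change of 1.85 (SE 0.04). WARS1, the tryptophanyl enzyme, had 845, 843 and 844 CPM against 255, 244 and 255 CPM, a log2 fold change of 1.75 (SE 0.03). In both genes every PPM1G shRNA library was more than 3 times as high as any control library. WARS1 shares 10.6% of its exon bases with other annotated genes, 287 of them with WDR25 on the opposite strand, which averaged 38.4 CPM in PPM1G shRNA libraries and 13.2 CPM in control libraries. The strand setting of the counting was not stated, so reads of genes that overlap on opposite strands cannot be told apart. This also holds for YARS1 with S100PBP (396 shared bases), HARS1 with WDR55 (221) and KARS1 with TERF2IP (176). It holds as well for EARS2 with UBFD1 (370) and CARS2 with ING1 (326). Of these partners S100PBP (log2 fold change 0.78), WDR55 (0.65) and TERF2IP (0.86) rose, and UBFD1 (-0.76) and ING1 (-0.86) fell.

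YARS1, the tyrosyl enzyme, had 518, 507 and 507 CPM in PPM1G shRNA libraries and 258, 253 and 251 CPM in control libraries, a log2 fold change of 1.01 (SE 0.03). GARS1, the glycyl enzyme of both compartments, had 369, 369 and 373 CPM against 210.2, 196 and 202 CPM, a log2 fold change of 0.87 (SE 0.03). Neither gene's groups overlapped, and YARS1 was the fourth and last cytosolic gene past 2-fold in this direction.

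MARS1, the methionyl enzyme needed to charge the initiator tRNA, averaged 245 ± 4.1 CPM in PPM1G shRNA libraries and 145 ± 6.2 CPM in control libraries (log2 fold change 0.76, SE 0.03). It shares 13.3% of its exon bases with other genes, 355 of them with DDIT3 on the opposite strand. DDIT3 stood at 226 ± 2.5 CPM in PPM1G shRNA libraries and 17.7 ± 2.9 CPM in control libraries. The part of DDIT3 reads in the MARS1 counts was not tested.

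Threonine has a pair of cytosolic-type genes. TARS1 had 315, 309.6 and 318 CPM in PPM1G shRNA libraries against 213, 199 and 204 CPM in control libraries (log2 fold change 0.61, SE 0.03), and TARS3, its paralog, averaged 12.2 ± 1.0 CPM against 6.99 ± 0.94 CPM (0.81, SE 0.11). Both were higher without overlap, and TARS3 was the noisier of the pair. SARS1, the seryl enzyme, averaged 274 ± 2.0 CPM against 191 ± 2.3 CPM (0.52, SE 0.03).

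The smallest changes among cytosolic genes were those of IARS1 and NARS1, just above and just below 0. IARS1, the isoleucyl enzyme, had 1206, 1189 and 1213 CPM in PPM1G shRNA libraries and 1125, 1132 and 1103 CPM in control libraries, a log2 fold change of 0.10 (SE 0.02). NARS1, the asparaginyl enzyme, had 200.5, 209 and 211 CPM against 218, 223 and 222 CPM, a log2 fold change of -0.09 (SE 0.03). The direction for NARS1 depends on the scaling, since plain library totals give 0.0053. EPRS1, which joins glutamyl and prolyl activities in one protein, rose by 0.18 (SE 0.03). Below NARS1 the order ran through RARS1 (-0.15), FARSA (-0.18), LARS1 (-0.32), KARS1 (-0.42), VARS1 (-0.59) and QARS1 (-0.65) on the log2 scale, for arginine, the alpha chain of the phenylalanyl enzyme, leucine, lysine, valine and glutamine. RARS1 was at -0.05 and not called with plain library totals and with both log2 FPKM fits.

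HARS1, the histidyl enzyme, had 32.1, 31.6 and 36.1 CPM in PPM1G shRNA libraries against 77.6, 74.3 and 80.5 CPM in control libraries. Its log2 fold change of -1.22 (SE 0.05) was the lowest of the 36, and the groups were far apart. FARSB, the beta chain of the phenylalanyl enzyme, had 40.0, 39.4 and 38.3 CPM against 84.6, 80.3 and 82.0 CPM (-1.07, SE 0.04). The alpha chain FARSA, with which it forms a tetramer, had 125, 122 and 125 CPM against 143, 135 and 142 CPM, so the chains of the same enzyme differed in the size of their fall. The FARSA to FARSB ratio of FPKM was 15.8, 15.7 and 16.6 in PPM1G shRNA libraries and 8.60, 8.52 and 8.79 in control libraries. Its absolute value depends on the gene lengths the authors used, which the values imply were 1811 bases for FARSA and 9191 for FARSB. In the GENCODE annotation the exon bases come to 2435 for FARSA and 3369 for FARSB. The FPKM level of FARSB may therefore be too low and the FARSA to FARSB ratio too high. Every other ratio that uses FARSB also depends on the length used.

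Several cytosolic synthetases are held in the multi-tRNA synthetase complex. Of its 7 members among the 36 (EPRS1, IARS1, KARS1, LARS1, MARS1, QARS1 and RARS1), 3 rose and 4 fell, none by 2-fold or more. Their median log2 fold change was -0.15 and their range -0.65 to 0.76. Of the 13 cytosolic genes outside it, 8 rose and 5 fell, with a median of 0.61, and all 6 changes of at least 2-fold were among these. The subgroups were compared with no test. Synthetases also fall into 2 classes by the fold of the catalytic domain. EPRS1 has a part of each class and was counted once, under class I. Cytosolic class I genes numbered 6 risen and 4 fallen (median 0.14) and cytosolic class II genes 5 and 5 (median 0.21). Mitochondrial class I genes numbered 2 risen and 6 fallen (median -0.44) and class II genes 4 and 3 (median 0.28).

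Among the cytosolic genes with a promoter window, the 6 with TGATGNAA comprised 5 that rose and 1, NARS1, that fell, with a median log2 fold change of 0.69 and a range of -0.09 to 2.25. The 10 without it comprised 4 that rose and 6 that fell, with a median of -0.17 and a range of -1.22 to 1.75. WARS1 is the highest of the 10 without a match, and IARS1, with a match 13 bases before its start, changed by 0.10. The direction of NARS1 depends on the scaling. Members of both groups share exon bases with other genes, among them MARS1 with DDIT3 and WARS1 with WDR25. The part of such overlaps in the split was not tested. The fold changes chose the family, so this split is a description. The mitochondrial gene with a match was YARS2, which fell.

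Other motifs were searched on both strands in the same windows. The E-box CACGTG stood in 1 of 16 cytosolic windows (6.25%) and 3 of 14 mitochondrial windows (21.4%), against 7.43% of all windows and 9.92% of those of tested genes. The NRF1 core GCGCNNGCG stood in 5 of 16 (31.3%) and 4 of 14 (28.6%), against 17.0% of all windows and 29.3% of those of tested genes. The interferon-response core GAAANNGAA stood in 2 of 16 (12.5%) and 1 of 14 (7.14%), against 8.29% of all windows and 6.75% of those of tested genes.

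Levels can be compared between genes only per length, in the authors' FPKM. In PPM1G shRNA libraries AARS1 was the highest cytosolic synthetase at 422 ± 2.2 FPKM, then WARS1 at 298 ± 0.41, IARS1 at 259 ± 2.5 and YARS1 at 212 ± 2.1 (SD, n = 3). In control libraries IARS1 was the highest at 225 ± 3.4 FPKM, then YARS1 at 98.4 ± 1.4, SARS1 at 91.8 ± 0.95, WARS1 at 82.8 ± 1.9 and AARS1 at 82.6 ± 1.8. WARS1 and AARS1 did not differ beyond their spread in control libraries. CARS1 held place 11 of 20 in PPM1G shRNA libraries and place 18 in control libraries. TARS3 was the lowest in both groups, at 2.71 ± 0.22 FPKM in PPM1G shRNA libraries and 1.44 ± 0.19 in control libraries.

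**Figure D2:**
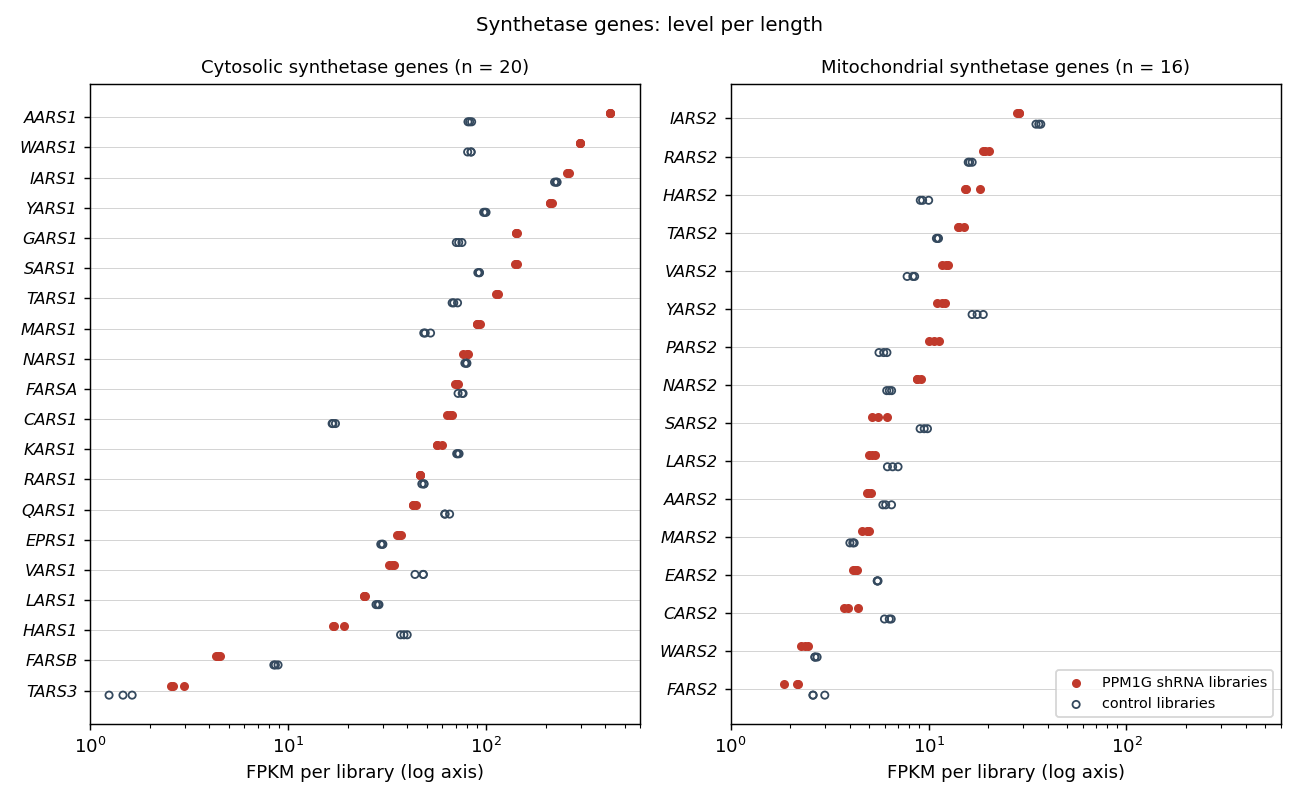
FPKM of each synthetase gene in each library on a log axis, cytosolic genes left and mitochondrial genes right, ordered by the mean of the PPM1G shRNA libraries, which are filled, while control libraries are open. AARS1 and WARS1 lead the cytosolic genes at 422 and 298 FPKM in PPM1G shRNA libraries, and IARS2 leads the mitochondrial genes at 28.4 FPKM in PPM1G shRNA libraries.

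The FPKM of the 20 cytosolic genes summed to 2154, 2158 and 2168 in PPM1G shRNA libraries 1 to 3 and to 1282, 1269.7 and 1287 in control libraries 1 to 3. The 16 mitochondrial genes summed to 153, 154 and 158 against 149.8, 157 and 157. In FPKM, which is scaled by plain totals, the cytosolic sum was higher without overlap and the mitochondrial sums overlapped. In TMM-scaled CPM the mitochondrial sum was 496, 494 and 511 in PPM1G shRNA libraries and 531, 554 and 555 in control libraries, lower without overlap, so the scaling decides whether its groups overlap. The cytosolic to mitochondrial ratio was 14.0, 14.0 and 13.7 in PPM1G shRNA libraries and 8.56, 8.08 and 8.22 in control libraries. Without AARS1 and WARS1, the cytosolic sum was 1432, 1437 and 1450.2 FPKM against 1118, 1107 and 1118 FPKM. AARS1 made up 19.7%, 19.6% and 19.4% of the cytosolic sum in PPM1G shRNA libraries and 6.31%, 6.50% and 6.56% in control libraries, whereas IARS1 made up 12.0%, 11.9% and 12.1% against 17.6%, 18.0% and 17.2%.

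**Figure D3:**
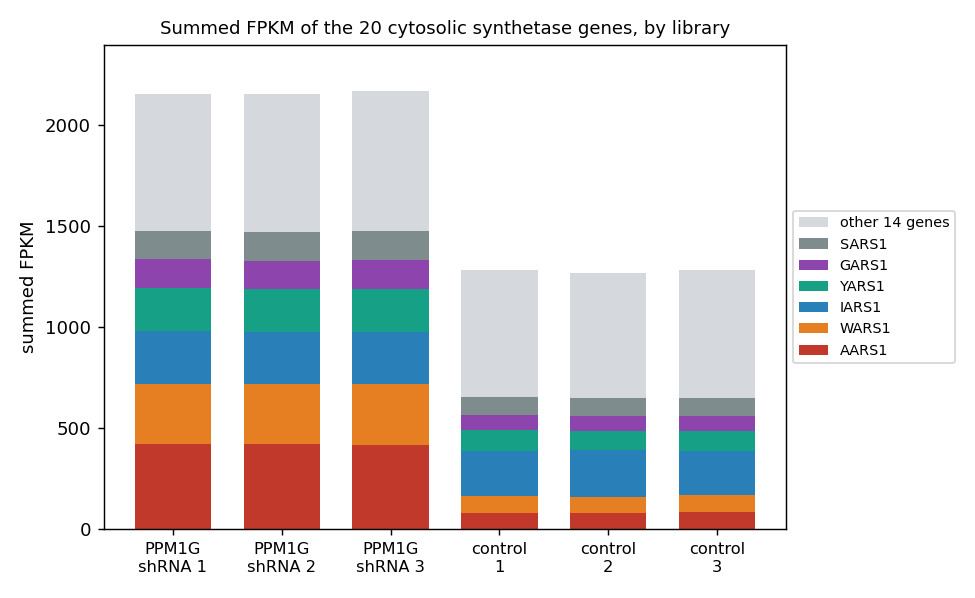
Stacked FPKM of the 20 cytosolic synthetase genes in each library, PPM1G shRNA libraries left and control libraries right, with 6 genes coloured and the other 14 in grey. The bars reach 2154 to 2168 FPKM in PPM1G shRNA libraries and 1269.7 to 1287 in control libraries, and the AARS1 and WARS1 segments differ most in height.

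The mitochondrial enzymes are made from nuclear genes and imported. PARS2, the prolyl enzyme, changed most upward, with 24.3, 22.9 and 25.6 CPM in PPM1G shRNA libraries against 15.1, 14.5 and 13.7 CPM in control libraries (log2 fold change 0.75, SE 0.07). HARS2, the histidyl enzyme, had 36.8, 43.2 and 36.8 CPM against 23.3, 23.8 and 25.6 CPM (0.69, SE 0.06). It shares 152 exon bases with ZMAT2 on the same strand. ZMAT2 averaged 62.1 CPM in PPM1G shRNA libraries and 69.6 CPM in control libraries, and its part in the HARS2 counts was not tested. VARS2 rose by 0.47, NARS2 by 0.38, TARS2 by 0.28 and RARS2 by 0.17 on the log2 scale, the enzymes for valine, asparagine, threonine and arginine. VARS2 shares 1858 exon bases with GTF2H4 on the same strand, which averaged 18.9 CPM in PPM1G shRNA libraries and 37.0 CPM in control libraries, so its value is uncertain.

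MARS2, the mitochondrial methionyl enzyme, had 14.3, 13.4 and 14.7 CPM in PPM1G shRNA libraries and 12.6, 13.2 and 13.0 CPM in control libraries, with a log2 fold change of 0.13 (SE 0.08). WARS2 had the smallest fall of the mitochondrial genes, with 7.82, 7.19 and 7.46 CPM against 9.04, 9.24 and 9.03 CPM (-0.28, SE 0.10). AARS2 (-0.40), IARS2 (-0.44), LARS2 (-0.45), EARS2 (-0.48) and FARS2 (-0.50), for alanine, isoleucine, leucine, glutamate and phenylalanine, fell within a narrow band.

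The largest mitochondrial falls were those of SARS2, CARS2 and YARS2. SARS2, the seryl enzyme, had 9.71, 11.5 and 10.4 CPM in PPM1G shRNA libraries against 18.1, 19.0 and 19.8 CPM in control libraries (-0.85, SE 0.08). CARS2 had 15.5, 14.8 and 17.4 CPM against 25.4, 27.4 and 26.9 CPM (-0.74), and YARS2 had 24.1, 22.6 and 24.7 CPM against 36.4, 41.4 and 38.6 CPM (-0.71). Each gene's groups stood apart. CARS2 shares 326 exon bases with ING1 on the opposite strand, which averaged 9.35 CPM in PPM1G shRNA libraries and 17.0 CPM in control libraries. The part of ING1 reads in the CARS2 counts was not tested. SARS2 shares 57.0% of its exon bases with other genes, 1492 with a same-strand readthrough annotation and 349 with MRPS12 on the opposite strand, so its count is uncertain.

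Cytosolic and mitochondrial genes for the same amino acid were set side by side in 18 pairs. In 7 pairs the cytosolic gene rose and the mitochondrial gene fell, in 4 pairs the cytosolic gene fell and the mitochondrial gene rose, in 3 both rose, in 3 both fell, and MARS1 rose while MARS2 was not called. The pairs are not independent, since EPRS1, TARS2 and FARS2 each stand in 2 of them. Of the 4 pairs with a cytosolic fall and a mitochondrial rise, those of NARS1 and RARS1 rest on calls that plain library totals remove. Among the 7 pairs with the reverse pattern, that of WARS1 rests on a WARS2 call that plain library totals also remove (-0.18). The FPKM ratio AARS1 to AARS2 was 84.6 in PPM1G shRNA libraries and 13.4 in control libraries. The WARS1 to WARS2 ratio was 125.5 against 30.8, that of CARS1 to CARS2 16.2 against 2.70, and that of YARS1 to YARS2 18.2 against 5.56. The ratio was lower in PPM1G shRNA libraries for 6 pairs, those of HARS1, VARS1, NARS1 and RARS1 with their mitochondrial counterparts, EPRS1 with PARS2 (3.40 against 5.04) and FARSB with FARS2 (2.13 against 3.16). HARS1 to HARS2 was 1.08 in PPM1G shRNA libraries and 4.05 in control libraries.

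HARS1 and HARS2 stand head to head on chromosome 5. In the RefSeq table they do not overlap and their starts lie 85 bases apart, whereas in GENCODE their exons share 437 bases on opposite strands, so a part of each count could belong to the other. They changed in opposite directions, at -1.22 and 0.69. EPRS1 and IARS2 are the other close neighbours among the 36, 47627 bases apart on chromosome 1 in RefSeq, with log2 fold changes of 0.18 and -0.44.

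**Figure D4:**
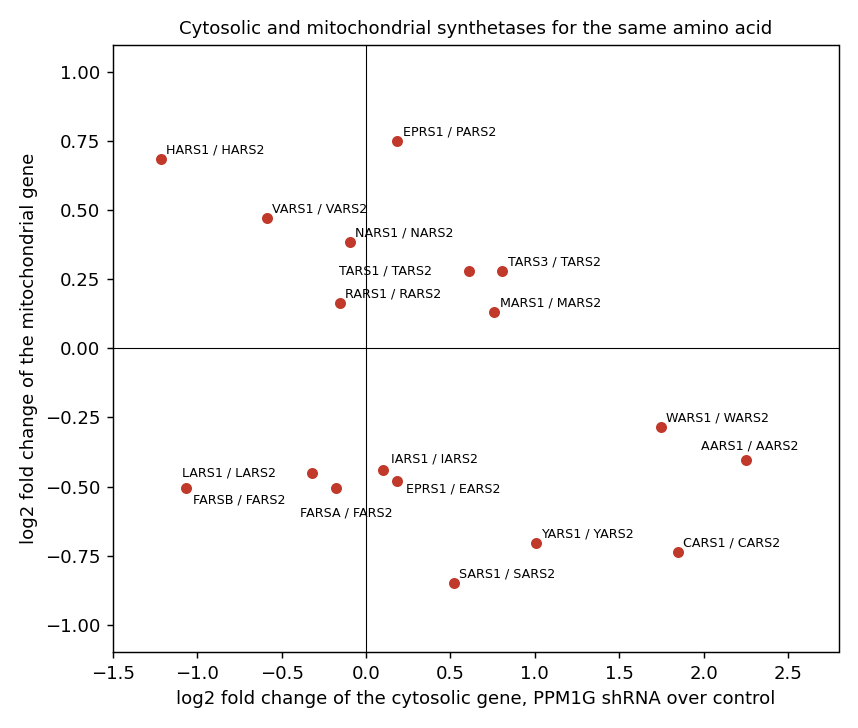
Each point is a pair of synthetase genes for the same amino acid, with the log2 fold change (PPM1G shRNA over control) of the cytosolic gene on the x axis and of the mitochondrial gene on the y axis, for 18 pairs. The 7 pairs at lower right have a cytosolic gene that rose and a mitochondrial gene that fell, and of the 4 pairs at upper left the HARS1 and HARS2 pair lies farthest out, at -1.22 and 0.69.

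Around the synthetases, 6 lists of 67 genes, 65 of them tested, were examined. Their counts stand beside 41.5% of all genes tested that rose and 41.3% that fell. Like the family, these lists were written with earlier results of this contrast known, so their p-values are not independent evidence of a direction. Among the scaffold proteins of the multi-tRNA synthetase complex, AIMP1 (log2 fold change 0.22, edgeR adjusted p = 0.00118) and AIMP2 (0.37, adjusted p = 2.22e-07) rose. EEF1E1, the scaffold protein also called AIMP3, fell to 17.6 CPM in PPM1G shRNA libraries, against 34.0 CPM in control libraries (-0.95, edgeR adjusted p = 8.09e-15). Of 8 tested genes for other charging and proofreading steps, 2 rose, 2 fell and 4 were not called. SEPSECS, which makes selenocysteinyl-tRNA, rose by 0.78, and MTFMT, which formylates the mitochondrial initiator tRNA, by 0.53, while DTD2 (-0.38) and GATB (-0.27) fell.

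Charged tRNA is delivered by elongation factors. Of 7 such genes, 1 rose and 5 fell, with a median log2 fold change of -0.46, where 41.5% of all genes tested rose and 41.3% fell. EEF1A1, the general carrier, had 4277 CPM in PPM1G shRNA libraries and 9298 CPM in control libraries (-1.12, edgeR adjusted p = 5.67e-26). EEF1A2, its tissue-restricted paralog, had 6.01 CPM against 0.311 CPM (4.26, SE 0.24, edgeR adjusted p = 6.87e-17). EEF1A2 had only 14, 12 and 6 counts in control libraries 1 to 3, so the size of its rise is uncertain. EEF1D (-0.84) and EEF1B2 (-0.79), subunits of the exchange factor, fell.

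Among 17 genes of tRNA maturation and export, 5 rose, 7 fell and 5 were not called, with a median of -0.07. With plain library totals and with both log2 FPKM fits 7 rose and 6 fell, so which direction holds more calls depends on the scaling. POP1, a subunit of RNase P, fell by 1.54 (edgeR adjusted p = 1.27e-17) and PRORP, the nuclease of mitochondrial RNase P, by 0.75, whereas its partner TRMT10C rose by 0.74 and ELAC1 by 0.84. Of 18 genes of RNA polymerase III and its factors, 5 rose, 11 fell and 2 were not called, with a median of -0.29. Among those that rose was MAF1 (0.28), a repressor of the polymerase, so the counts are not of its machinery alone. Over all genes tested, 41.5% rose and 41.3% fell. POLR3K fell by 2.23 (edgeR adjusted p = 4.72e-16), POLR3G by 1.13 and POLR3B by 0.73, while POLR3C rose by 0.77.

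The last list holds sensors of uncharged tRNA and genes of the ATF4 branch. Of 12 tested genes 8 rose, 3 fell and 1 was not called, with a median of 1.88, where 41.5% of all genes tested rose and 41.3% fell. ATF4 averaged 671 ± 11 CPM in PPM1G shRNA libraries and 183 ± 8.8 CPM in control libraries (log2 fold change 1.88, SE 0.03, edgeR adjusted p = 4.73e-31). ASNS, asparagine synthetase, rose by 2.75 (edgeR adjusted p = 8.64e-35), DDIT3 by 3.68, NUPR1 by 6.04 and CHAC1 by 2.26. NUPR1 had only 8, 11 and 5 counts in control libraries 1 to 3, and CHAC1 averaged 1.49 CPM there, so the sizes of these rises are uncertain. TRIB3, on the list but removed by the filter on low counts, had 8, 9 and 7 counts in PPM1G shRNA libraries and 6, 1 and 0 in control libraries. The 3 that fell, named after their values were seen, were upstream members, EIF2AK4, which encodes GCN2 (-0.20), its activator GCN1 (-0.72) and EIF2S1 (-0.43).

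**Figure D5:**
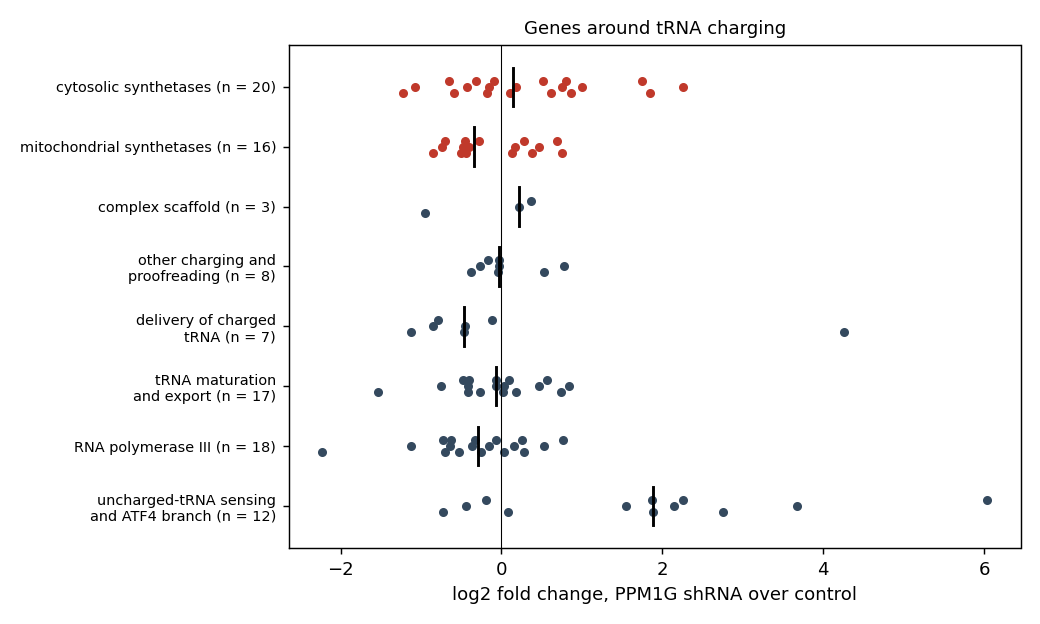
Log2 fold change (PPM1G shRNA over control) of each tested gene in the 2 synthetase groups and in 6 lists around tRNA charging, with a vertical bar at each median. The medians are 0.14 for cytosolic and -0.34 for mitochondrial synthetases, and the list of uncharged-tRNA sensing and the ATF4 branch has the highest, 1.88.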

How the data were processed

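The deposited counts are whole numbers that the values show were not normalized by the authors. The deposited FPKM values are those counts over the plain library total and a fixed gene length. The build was GRCh38, per the submitters' processing notes, while aligner, counter, annotation and strand setting were not given in the sources used here.

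Counts were fitted with edgeR 4.0.16 (limma 3.58.1, R 4.3.3) using filterByExpr with a minimum of 10 counts, TMM factors, a robust quasi-likelihood fit with the group as the only term, and Benjamini-Hochberg adjustment over all 13060 genes tested at a threshold of 0.05. CPM values are TMM-scaled, with the SD over 3 libraries, and the SE is the absolute log2 fold change over the square root of F. DESeq2 1.42.0, limma on log2(FPKM + 1), other scalings and filters, a replicate block and left-out libraries were alternatives. Exon overlaps came from GENCODE and promoter windows from RefSeq. The members and lists were chosen with earlier results of these data known. Named genes were every member, PPM1G, the up to 4 most changed called genes of each list, ATF4 and DDIT3. EIF2AK4, GCN1, EIF2S1, MAF1, TRIB3 and genes that overlap members were added after their values were seen. No p is given for members.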

Additional observations from a re-analysis of the deposited data

How the results depend on the processing

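The median log2 fold change of the cytosolic genes (0.14) became 0.18 with upper-quartile scaling and 0.24 with plain totals, with log2(FPKM + 1) and with log2(FPKM + 0.1). That of the mitochondrial genes (-0.34) became -0.30 with upper-quartile scaling, -0.24 with plain totals, -0.19 with log2(FPKM + 1) and -0.24 with log2(FPKM + 0.1). Plain totals moved the median of all genes to 0.12. The difference between the medians (0.49) was 0.43 with log2(FPKM + 1). Leaving out members that share exon bases with another gene leaves fewer genes: 6 cytosolic rose and 4 fell, 2 mitochondrial rose and 4 fell, the mitochondrial median was -0.44 and the difference 0.58. Without single libraries the cytosolic median was 0.13 to 0.15, the mitochondrial -0.36 to -0.32 and the difference 0.46 to 0.51. NARS1 changed sign with plain totals (0.0053), log2(FPKM + 1) (0.0045) and log2(FPKM + 0.1) (0.0045), which all scale by plain library totals. Its call was lost with upper-quartile scaling (-0.06) and without PPM1G shRNA library 1 (-0.07). RARS1 lost its call (-0.05) and MARS2 gained one (0.19 to 0.23) with plain totals and both FPKM fits, and WARS2 lost its call with plain totals (-0.18). Same-numbered libraries did not deviate together (correlation at most 0.042). With 3 libraries a group, this low correlation cannot exclude that the samples were paired. The fit with a replicate block gave 11 cytosolic genes rising and 9 falling, and medians of 0.14 and -0.34. Members of few counts, such as WARS2 and TARS3, have the largest SE, which limits what small differences can be seen there.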
